A study of Cricetulus griseus with 27 samples.

Results

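The miR-17~92 cluster is a polycistron, a single primary transcript from which several miRNA hairpins are cut. Its mature products were taken from the deposited count table by name: 8 of 4815 entries, made up of cgr-miR-17-5p, cgr-miR-17-3p, cgr-miR-18a-5p, cgr-miR-19a, cgr-miR-19b-3p, cgr-miR-20a, cgr-miR-92a-3p and mmu-miR-92a-3p. The prefixes give the species of the database entry, Chinese hamster (cgr) or mouse (mmu). All cells were CHO-K1, an ovary-derived Chinese hamster line used to make recombinant proteins, and no group differed in genotype. Small RNA was sequenced from the cells, from microparticles (MPs, the larger vesicles, budded off at the cell surface) and from exosomes (smaller vesicles of endosomal origin). The standard culture was shaken in 15 mL of medium with 6 mM glutamine and harvested on day 3. The osmotic culture had 60 mM NaCl added, which raised osmolarity by 120 mOsm/L, and the ammonia culture had 9 mM NH4Cl added. Fraction and culture give 9 groups of 3 libraries, which the labels call biological replicates.

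The cluster is known in mammals as a growth-promoting, Myc-induced transcript, and its loss is lethal to newborn mice. Each hairpin is processed on its own, so products of the same transcript can reach different levels. The products fall into 4 families by seed, the stretch near the 5′ end that pairs with target mRNAs. MiR-17-5p and miR-20a share a seed and restrain cell-cycle regulators such as E2F1 and p21, miR-18a has a closely related seed of its own, miR-19a and miR-19b share a seed, and miR-92a has the seed of miR-25. MiR-17-3p comes from the opposite arm of the miR-17 hairpin. In CHO cells, forced expression of miR-17 has been used to raise growth and protein yield. In the RefSeq annotation of the Chinese hamster (CriGri-PICRH-1.0), Mir17, Mir18a, Mir19a, Mir20a, Mir19b and Mir92a followed one another as 6 consecutive genes on the same chromosome.

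Library totals ran from 26516 to 10374430. The shallowest groups were osmotic exosomes (26516 to 158836), ammonia exosomes (116689 to 203816) and standard cells (132154 to 180764), and the deepest were osmotic cells (8219782 to 10374430). Levels are CPM, a count divided by its library's total and scaled. CPM is a share, so fewer molecules of a miRNA and more of the others, or fewer vesicles of a kind and less RNA in each, cannot be told apart. NextFlex Combo-Seq was the kit for standard libraries and TruSeq Small RNA that for stressed ones, in separate pools, so culture stress and kit cannot be told apart wherever a stressed group is set against a standard one. Of 18 entries for markers of other cell types, cgr-miR-486-5p supplied most of the counts, at 181 to 285 counts in standard cells. It stood at 1414 ± 146 CPM (SD, n = 3) in standard and 2653 ± 349 CPM in ammonia cells. Mmu-miR-499-5p, also on the list, stood at 210 ± 29.8 CPM in standard cells and 341 ± 22.8 CPM in standard exosomes. Cgr-miR-451a was at 0 in all cell libraries. The summed marker level was 1528 to 1765 CPM in standard cells and 1792 to 2587 CPM in standard exosomes, and its part in the results was not tested. Products that share a seed or a name across species may compete for the same reads, and how the counting divided these is unknown.

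The 8 entries took a large part of the miRNA counts, and most of theirs were miR-92a-3p. Entries are counted by mature name, so reads of the same product from another locus cannot be told apart. In standard culture the 8 entries together made up 13% ± 3.29 (SD, n = 3) of all counts in cells, against 18.2% ± 1.87 in MPs and 24.8% ± 0.838 in exosomes. In osmotic culture they took 8.24% ± 1.32, 6.39% ± 2.82 and 6.68% ± 4.18 in the same order of fractions, and in ammonia culture 5.93% ± 0.997, 5.27% ± 0.385 and 5.37% ± 1.35. The hamster entry of miR-92a-3p was the highest member in 27 of 27 libraries. The 2 entries of miR-92a-3p supplied 85.4% ± 4.51 of the cluster's counts in standard cells, 88.4% ± 1.96 in standard MPs and 95.2% ± 0.284 in standard exosomes. They supplied 91.7% ± 2.81 in osmotic cells and 93% ± 0.946 in ammonia cells. In all 4 stressed vesicle groups their mean share lay between 97.3% (ammonia MPs) and 99.9% (ammonia exosomes). These shares are a description and were not tested, because the members differ too much in depth to serve as one score.

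**Figure D1:**
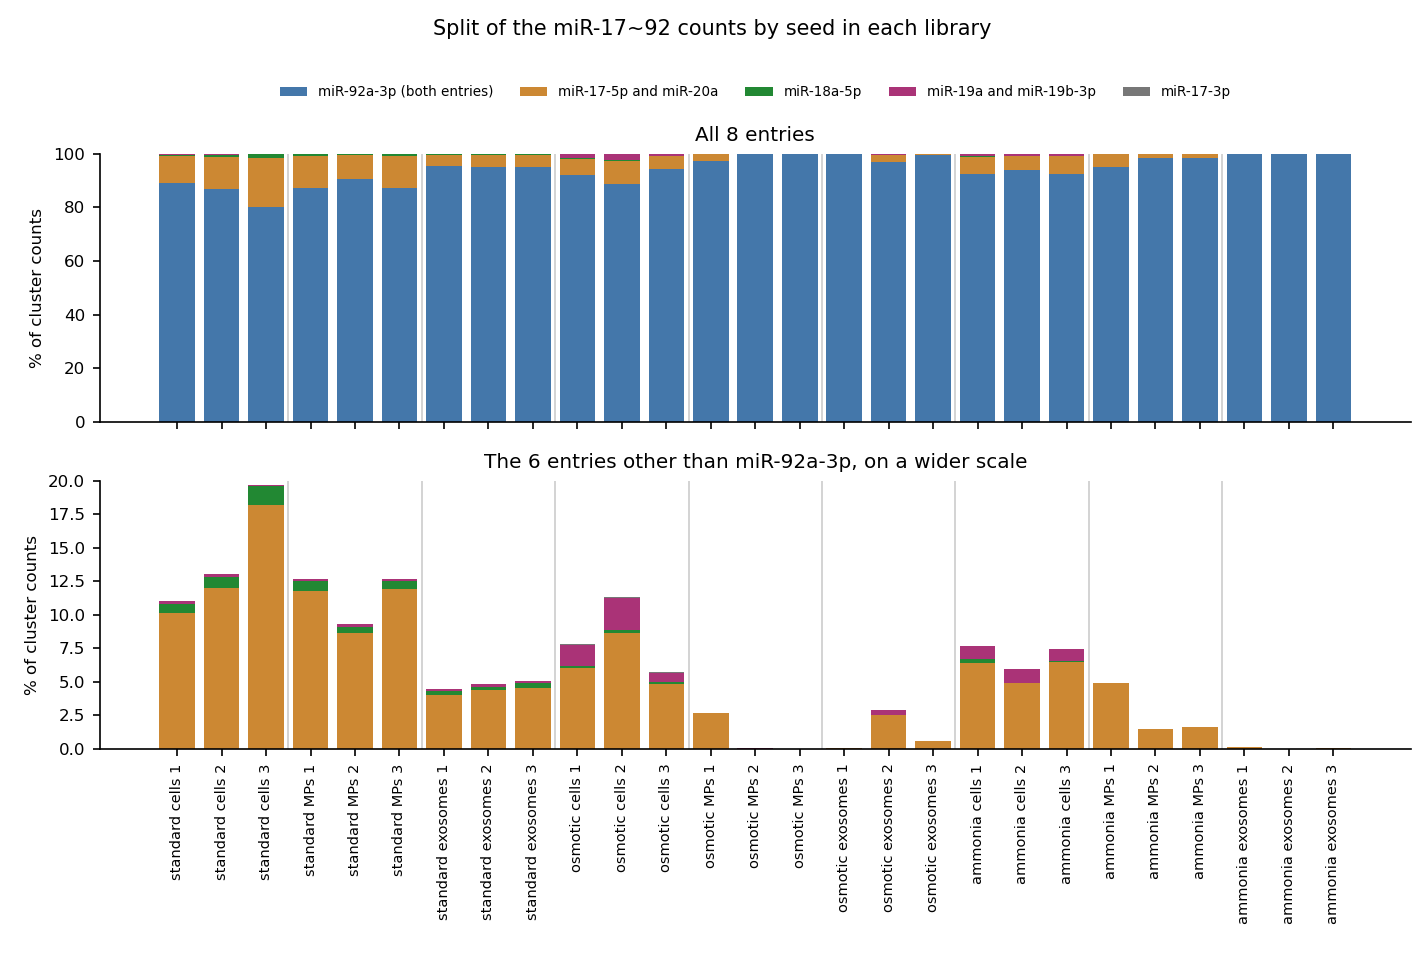
Split of the cluster's counts by seed in each of the 27 libraries, in % of cluster counts. The upper panel stacks all 8 entries and the lower panel leaves out miR-92a-3p, on an axis from 0 to 20%. MiR-92a-3p fills most of every bar, and the other products take 11.1% to 19.7% in standard cells, 4.50% to 5.06% in standard exosomes and 0% to 0.150% in ammonia exosomes.

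The miR-92 family came first in level and rose from cells to exosomes in standard culture. Cgr-miR-92a-3p stood at 133526, 101447 and 70205 CPM in standard cells, at 147245, 154948 and 121395 CPM in MPs and at 201659, 203648 and 213041 CPM in exosomes. The exosome libraries all lay above the cell and MP libraries, while cells and MPs overlapped. Exosomes held more than cells (log2 fold change +0.84 ± 0.20 (SE), adjusted p = 0.00335 by edgeR's quasi-likelihood test with Benjamini-Hochberg adjustment, as for all adjusted p-values of a log2 fold change here). For MPs against cells the log2 fold change was +0.44 ± 0.20 (adjusted p = 0.108), a value that was called with the authors' library sizes (+0.62, 0.0342), with no filter on low counts (+0.62, 0.0222), without cells replicate 1 (+0.62, 0.0419) and without MPs replicate 1 (+0.66, 0.0466). For exosomes against MPs it was +0.40 ± 0.20 (adjusted p = 0.152). Mmu-miR-92a-3p stood at 12168, 11014 and 8589 CPM in cells, at 19143, 21041 and 18411 CPM in MPs and at 28575, 29444 and 31062 CPM in exosomes, with no overlap between any fractions. It rose in MPs against cells (+0.84 ± 0.17, adjusted p = 0.00266) and in exosomes against cells (+1.29 ± 0.17, adjusted p = 3.31e-05). For exosomes against MPs its log2 fold change was +0.45 ± 0.17 (adjusted p = 0.0625).

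The miR-17/20a family held a pair with a shared seed and different distributions over the standard fractions. Cgr-miR-20a stood at 13893, 12984 and 15949 CPM in standard cells, at 19375, 14722 and 16830.3 CPM in MPs and at 7483, 7896 and 8022 CPM in exosomes. The exosome libraries all lay below both other fractions. Cgr-miR-20a fell in exosomes against cells (log2 fold change −1.09 ± 0.19, adjusted p = 0.000295) and against MPs (−1.27 ± 0.19, adjusted p = 0.000584). Cgr-miR-17-5p stood at 2686, 2606 and 1913 CPM in cells, at 3205, 2078 and 2161 CPM in MPs and at 2243, 2874 and 3656 CPM in exosomes. All 3 fractions overlapped, and its log2 fold change was +0.08 ± 0.20 (adjusted p = 0.801) for exosomes against cells and +0.09 ± 0.20 (adjusted p = 0.785) for exosomes against MPs. For MPs against cells the values were +0.18 ± 0.19 (adjusted p = 0.494) for cgr-miR-20a and −0.01 ± 0.20 (adjusted p = 0.969) for cgr-miR-17-5p.

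Within each library the log2 ratio of miR-20a to miR-17-5p counts (0.5 added to each) averaged 2.58 ± 0.41 (SD, n = 3) in standard cells, 2.79 ± 0.19 in MPs and 1.44 ± 0.30 in exosomes. An exact permutation test of any difference among the 3 groups gave p = 0.0179 over the 9 libraries. It did not pass after adjustment over the 18 ratio tests (adjusted p = 0.0536). The smallest p that 1680 arrangements of 9 libraries allow is 0.00357.

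The single member of the miR-18 family fell in the same standard comparisons as miR-20a. Cgr-miR-18a-5p stood at 1128, 1035 and 1362 CPM in cells, at 1356, 877 and 959.6 CPM in MPs and at 613, 577 and 928 CPM in exosomes. Exosomes lay below cells in all libraries and overlapped with MPs. It fell in exosomes against cells (log2 fold change −0.97 ± 0.23, adjusted p = 0.00291) and against MPs (−0.75 ± 0.22, adjusted p = 0.0212). The second of these calls was lost when MPs replicate 1 (adjusted p = 0.101), MPs replicate 3 (0.0855), exosomes replicate 1 (0.0713) or exosomes replicate 2 (0.0943) was left out, and the first was lost with the authors' library sizes (0.0567).

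The miR-19 family was the scarcest of the 4 in standard culture. Cgr-miR-19a stood at 15.1, 16.6 and 26.6 CPM in standard cells, from 2, 3 and 4 counts. It stood at 67.2, 86.9 and 82.2 CPM in MPs and at 102.9, 112.2 and 74.2 CPM in exosomes, above every cell library. The log2 fold change was +1.96 ± 0.47 (adjusted p = 0.00586) for MPs and +2.11 ± 0.46 (adjusted p = 0.00166) for exosomes against cells, both on few counts in cells. Cgr-miR-19b-3p, with the same seed, stood at 431, 299 and 79.7 CPM in cells, at 239.5, 262 and 218 CPM in MPs and at 400.0, 374.5 and 339.7 CPM in exosomes. The 3 cell libraries spanned both vesicle groups. Its log2 fold change was −0.18 ± 0.37 (adjusted p = 0.723) for MPs against cells and +0.31 ± 0.37 (adjusted p = 0.527) for exosomes against cells. The sign of the first turned without cells replicate 1, cells replicate 2 or MPs replicate 1.

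MiR-17-3p, the opposite arm of the miR-17 hairpin, was close to undetectable in standard culture. It was at 0 in the 3 standard cell libraries, where a count of 0 allows up to 6.47 CPM (3 counts over the group's total), and reached at most 2.51 CPM in MPs and 4.77 CPM in exosomes. It was too scarce to be tested there.

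Counted over the members, 2 of the 7 tested rose in standard MPs against cells and none fell, where 31.3% of all 351 entries tested passed and 15.7% rose. The 2 are cgr-miR-19a and mmu-miR-92a-3p, and the hamster and mouse entries of miR-92a-3p count as separate members. With entries summed over species, 1 member passed in MPs against cells. In standard exosomes against cells 3 of 7 rose (both miR-92a-3p entries and cgr-miR-19a) and 2 fell (cgr-miR-20a and cgr-miR-18a-5p), where 51.6% of all entries passed, 26.8% upward and 24.8% downward. In exosomes against MPs 2 of 7 fell and none rose, where 29.6% passed and 16% fell. Groups did not overlap for 2, 5 and 4 members in these comparisons, and for 45.9%, 57% and 49.3% of all entries. Against these shares the members' counts do not stand out. The median log2 fold change of the 7 members was +0.18, +0.31 and +0.15 in these comparisons, and that of all entries +0.07, +0.09 and +0.01. The comparisons share libraries and are not independent of one another.

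**Figure D2:**
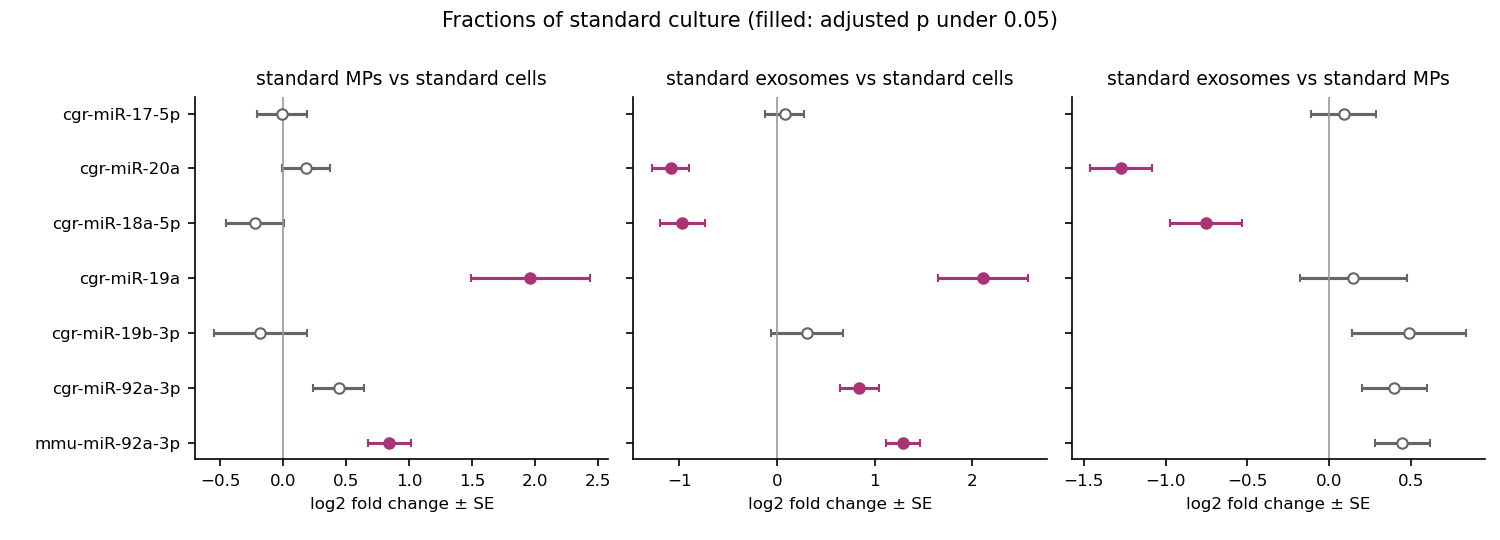
Log2 fold change ± SE of the 7 tested members between fractions of the standard culture, from a fit of 9 libraries. Filled points passed an adjusted p under 0.05. In exosomes against cells cgr-miR-20a (−1.09) and cgr-miR-18a-5p (−0.97) lie left of 0 and cgr-miR-92a-3p (+0.84) lies right of it, while cgr-miR-17-5p (+0.08) lies at 0.

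The hamster products of other seeds were also set against cgr-miR-92a-3p in the same library. In standard cells 4.40 to 9.61 counts of cgr-miR-92a-3p were found per count of miR-20a, in MPs 7.21 to 10.5 and in exosomes 25.8 to 26.9. The log2 ratio of miR-20a to cgr-miR-92a-3p averaged −2.79 ± 0.58 (SD, n = 3), −3.06 ± 0.29 and −4.72 ± 0.03 (exact permutation p = 0.0214, adjusted p = 0.0551). For miR-18a-5p it averaged −6.39 ± 0.63, −7.07 ± 0.36 and −8.22 ± 0.33 (exact permutation p = 0.00714, adjusted p = 0.0536). For miR-17-5p it averaged −5.37 ± 0.23, −5.85 ± 0.35 and −6.17 ± 0.31 (exact permutation p = 0.0786, adjusted p = 0.118). For miR-19b-3p it averaged −8.79 ± 0.81, −9.20 ± 0.07 and −9.12 ± 0.16 (exact permutation p = 0.550, adjusted p = 0.619). For miR-19a it averaged −12.11 ± 0.82, −10.80 ± 0.28 and −11.08 ± 0.35 (exact permutation p = 0.05, adjusted p = 0.0818). None of the 18 ratio tests passed after adjustment. Standard cells replicate 3, which had the lowest cgr-miR-92a-3p of the cell libraries, decided several: without it the adjusted p was 0.0468 for miR-20a and 0.0357 for miR-18a-5p, miR-19a and miR-19b-3p.

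**Figure D3:**
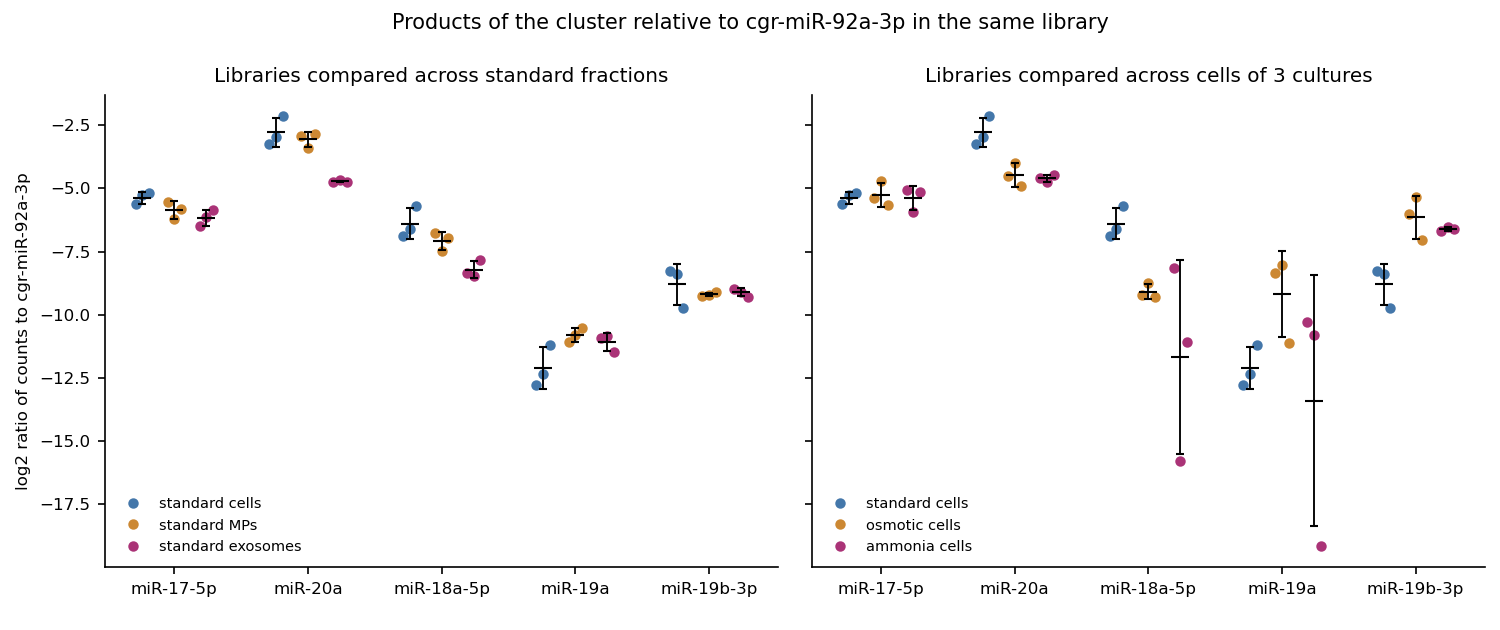
Log2 ratio of 5 products to cgr-miR-92a-3p within each library (0.5 added to each count), across the standard fractions (left) and across cells of the 3 cultures (right). Points are libraries and bars the mean ± SD of 3. In the left panel miR-20a drops from a mean of −2.79 in cells to −4.72 in exosomes, and in the right panel miR-19b-3p lies at −8.79 in standard, −6.15 in osmotic and −6.62 in ammonia cells.

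In the stressed cultures cgr-miR-92a-3p was present in every vesicle library, while other products were at or near 0 in many. Cgr-miR-92a-3p stood at 82318, 74944 and 61305 CPM in osmotic cells, at 80717, 38064 and 55648 CPM in osmotic MPs and at 89910.3, 17664 and 77878 CPM in osmotic exosomes. In ammonia culture it stood at 43569, 62147 and 54848 CPM in cells, at 43374, 52262 and 50365 CPM in MPs and at 68439, 42575 and 49559 CPM in exosomes. Fractions overlapped in both cultures. Of the 12 stressed vesicle libraries, cgr-miR-19a and cgr-miR-17-3p were at 0 in 12, cgr-miR-18a-5p in 10, cgr-miR-19b-3p in 3, cgr-miR-17-5p in 2 and cgr-miR-20a in 1. In the 9 standard libraries 5 of these 6 were never at 0, and cgr-miR-17-3p was at 0 in 5.

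In osmotic MPs against osmotic cells 5 of the 8 members fell and none rose, where 48.5% of 332 entries tested fell and 51.5% passed in either direction. The fractions did not overlap for 5 members and for 65.7% of all entries. Cgr-miR-17-5p stood at 1982, 2824 and 1207 CPM in osmotic cells and at 0, 2.72 and 4.11 CPM in osmotic MPs. Cgr-miR-19b-3p stood at 1258, 1830.3 and 463 CPM in cells and at 2.64, 1.81 and 1.03 CPM in MPs. Neither member overlapped between the fractions, and their log2 fold changes were −8.75 ± 2.42 (adjusted p = 0.0125) and −8.52 ± 2.21 (adjusted p = 0.00948). Cgr-miR-18a-5p had 3589 summed counts in cells and 1 in MPs, which over the summed totals is a level 328 times higher in cells (95% exact interval 58.8 to 12954). Cgr-miR-19a was at 252, 282 and 27.3 CPM in cells and at 0 in MPs, at least 153-fold below its mean in cells. Cgr-miR-17-3p was at 44.9, 41.8 and 32.3 CPM in cells and at 0 in MPs, at least 32.5-fold below its mean in cells. Cgr-miR-17-3p entered this fit only through the osmotic cell libraries, and cgr-miR-18a-5p and cgr-miR-19a only through cell libraries. The count of members that fell thus holds 3 that the filter on low counts admitted by the group where they are high. No p is given for these 3. With no filter on low counts 0 members passed. These bounds and intervals cover counting error only.

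Cgr-miR-20a differed from its seed partner in the first osmotic MP library. It stood at 3574, 4706 and 2042 CPM in osmotic cells and at 2511, 4.53 and 2.06 CPM in osmotic MPs, a log2 fold change of −1.27 ± 1.82 (adjusted p = 0.572). Without MPs replicate 1 the value was −9.11 (adjusted p = 0.0415). The same library was the highest of its group in mmu-miR-92a-3p, which stood at 3018, 2416 and 2370.1 CPM in cells and at 10790.3, 55.3 and 3833 CPM in MPs (+1.70 ± 1.54, adjusted p = 0.370). For cgr-miR-92a-3p the log2 fold change was +0.49 ± 0.55 (adjusted p = 0.470). The median over the 8 members was −7.77, or −6.02 with members at 0 in MPs set at their bounds, and that of all entries −7.05. All 5 calls were lost without osmotic MPs replicate 2, and 4 of them without osmotic MPs replicate 3.

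In ammonia MPs against ammonia cells 3 of 8 members fell and none rose, where 31% of all entries fell and 32.5% passed in either direction. With no filter on low counts 0 members passed, and in a fit of these 2 groups alone 1 did. Of the 3, cgr-miR-18a-5p and cgr-miR-19a entered the fit only through cell libraries, so no p is given for them. The fractions did not overlap for 4 members and for 41% of all entries. Cgr-miR-19b-3p stood at 418, 664 and 568 CPM in ammonia cells and at 1.35, 0 and 2.33 CPM in MPs (log2 fold change −8.44 ± 2.17, adjusted p = 0.00846). Cgr-miR-18a-5p had 1011 summed counts in cells and 1 in MPs, a level over the summed totals 425 times higher in cells (95% exact interval 76.1 to 16796). That interval pools the libraries of each group and covers counting error only, not the spread between libraries. Its cell libraries ranged widely, at 151, 1.02 and 25.4 CPM, and the first held 871 of the 1011 counts. The third MP library was at 0.389 CPM, so the second cell library lay far closer to it than the interval allows. Cgr-miR-19a was at 35, 34.8 and 0 CPM in cells and at 0 in MPs, at least 58.2-fold below its mean in cells. The third cell library, at 0 itself, showed no difference from MPs. The miR-17/20a pair was not called here. Cgr-miR-20a stood at 1822, 2319 and 2467 CPM in cells and at 1809, 762.5 and 871 CPM in MPs, and cgr-miR-17-5p at 1288, 1018 and 1532 CPM in cells and at 561.5, 55.6 and 4.28 CPM in MPs. Both were lower in every MP library than in every cell library. The adjusted p was 0.885 for cgr-miR-20a and 0.360 for cgr-miR-17-5p. For the 8 members the median was −1.56 and for all entries −1.43.

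Exosomes of the stressed cultures gave no call on any member against cells or MPs. Cgr-miR-17-5p stood at 6.30, 180.0 and 188.6 CPM in osmotic exosomes and at 24.5, 0 and 8.57 CPM in ammonia exosomes, from 15 and 6 counts. Cgr-miR-20a stood at 37.8, 280.1 and 339.4 CPM in osmotic and at 58.9, 0 and 17.1 CPM in ammonia exosomes, from 29 and 14 counts. Cgr-miR-19b-3p stood at 6.30, 80.0 and 37.7 CPM in osmotic and at 19.6, 0 and 0 CPM in ammonia exosomes, and cgr-miR-18a-5p was at 0 in all 6. All of these values lay below the cell libraries of the same culture except for cgr-miR-18a-5p in ammonia culture, whose second cell library held 1.02 CPM, under the 6.32 CPM that a count of 0 allows in ammonia exosomes. The second osmotic exosome library, with 49988 counts, was the lowest of its group in cgr-miR-92a-3p.

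In osmotic exosomes against osmotic cells 0 of 8 members passed by edgeR and 0 by DESeq2, and 4 had an unadjusted p under 0.05. Of all 332 entries, 0 passed by edgeR and 19 by DESeq2, and 79 had an unadjusted p under 0.05. The groups did not overlap for 6 members and for 64.2% of entries. In ammonia exosomes against ammonia cells 0 of 8 members passed by edgeR and 3 by DESeq2, and 6 had an unadjusted p under 0.05. Of all 332 entries, 30 (9.04%) passed by edgeR and 49 by DESeq2, and 143 had an unadjusted p under 0.05. Here 5 members and 58.7% of entries did not overlap. The lowest edgeR adjusted p-values there were 0.0535 for cgr-miR-19b-3p and 0.0538 for cgr-miR-17-5p. Mmu-miR-92a-3p stood at 107, 260.1 and 13350.4 CPM in osmotic exosomes and at 206.1, 58.5 and 111.4 CPM in ammonia exosomes, so a single osmotic library carried it, the shallowest of all with 26516 counts. Between stressed exosomes and MPs 0 of 8 members passed by edgeR in either culture, where 2.41% (osmotic) and 0.301% (ammonia) of entries passed. DESeq2 called 2 members in each culture, and 78 (osmotic) and 74 (ammonia) of all 332 entries. Before adjustment 1 and 3 members were under 0.05, and 85 and 94 of all entries.

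**Figure D4:**
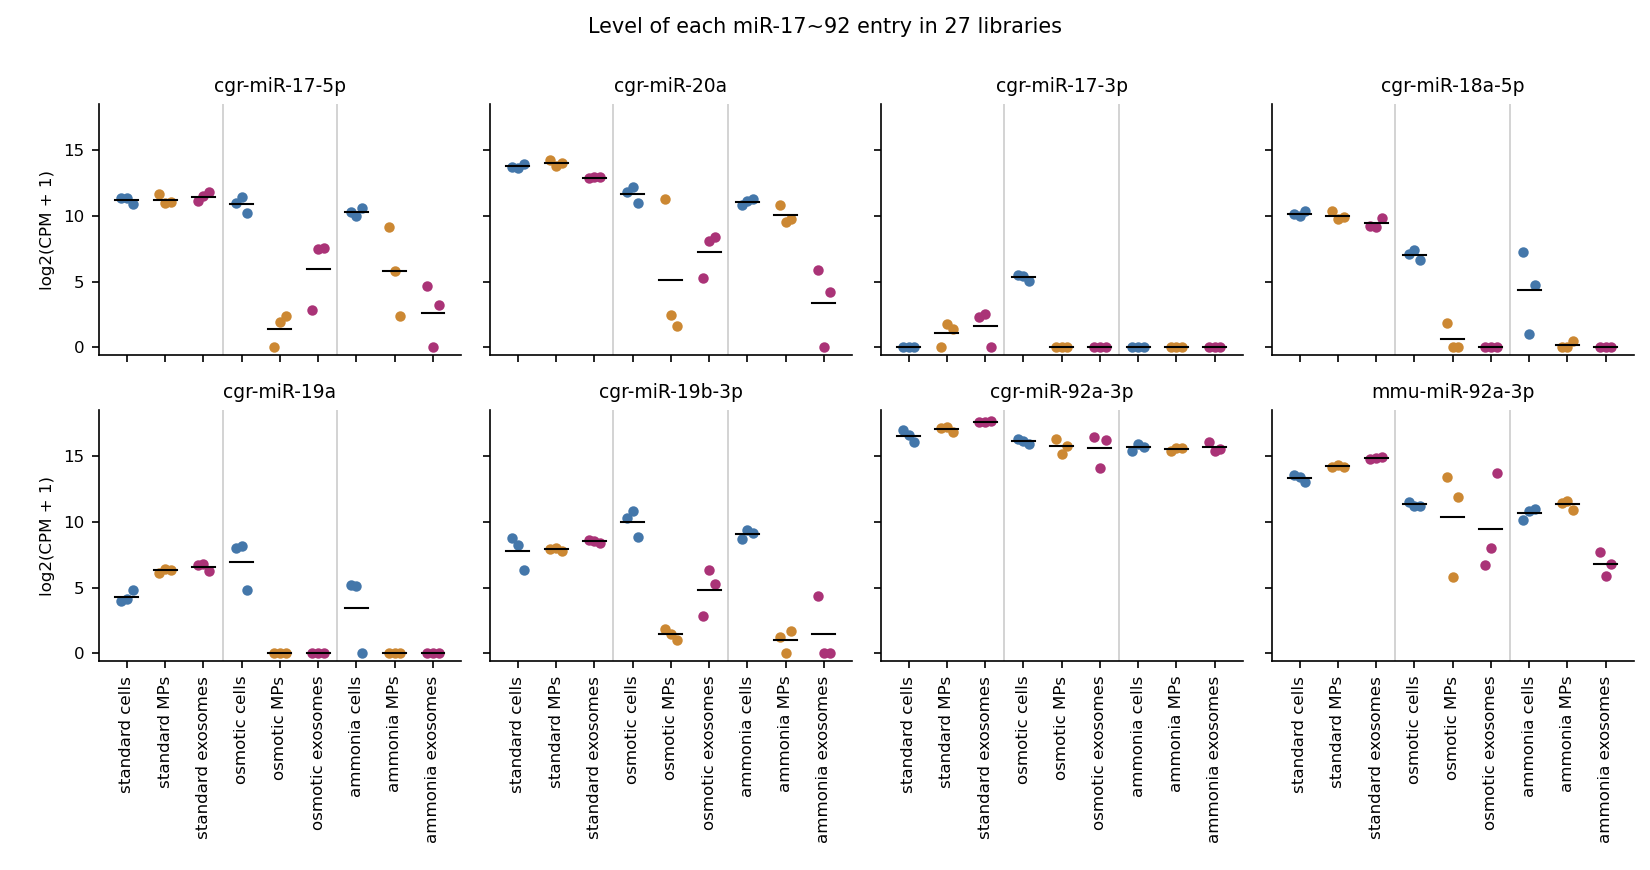
Level of each member as log2(CPM + 1) in all 27 libraries (points, blue for cells, orange for MPs, purple for exosomes), with the group mean as a line. Cgr-miR-92a-3p stays between 17664 and 213041 CPM throughout, whereas cgr-miR-19a lies at 0 in all 12 stressed vesicle libraries and cgr-miR-18a-5p in 10 of them.

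The vesicle minus cell difference was compared between cultures by an interaction term in a fit of all 27 libraries, which inherits the difference of kits. Against standard culture, the MP difference was lower in osmotic culture for 5 of 8 members (38.6% of 420 entries passed, 35.7% lower). In ammonia culture it was lower for 3 (21.9% passed, 19.5% lower). The 5 include cgr-miR-17-3p, which entered the fit only through osmotic cells and had at most 4.77 CPM elsewhere. Its term is therefore not read as a result. For cgr-miR-17-5p the osmotic term was −8.77 ± 2.02 (adjusted p = 0.00290), and for cgr-miR-19b-3p the terms were −8.44 ± 1.85 in osmotic (adjusted p = 0.00215) and −8.10 ± 1.80 in ammonia culture (adjusted p = 0.00226). The exosome difference was lower for 2 members in osmotic culture (10% passed, 8.81% lower) and for 5 in ammonia culture (21.4% passed, 20.7% lower). Of the latter, cgr-miR-17-5p had a term of −7.44 ± 1.97 (adjusted p = 0.0124), cgr-miR-20a of −5.90 ± 2.04 (adjusted p = 0.0413) and mmu-miR-92a-3p of −5.52 ± 1.74 (adjusted p = 0.0289). No term passed for cgr-miR-92a-3p, with adjusted p-values of 1.00 in both MP terms, 0.0923 in osmotic and 0.145 in ammonia exosomes. The exosome calls are fragile: scaling by DESeq2's size factors left 0 in either culture, and leaving out a standard cell library left 0 in osmotic culture.

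Between the stressed cultures, made with the same kit, no member passed in the same fraction or in the change of vesicles against cells. In osmotic against ammonia cells 0 of 8 members passed by edgeR and 1 by DESeq2, and 1 had an unadjusted p under 0.05. Of all 354 entries, 0 passed by edgeR and 40 by DESeq2, and 56 had an unadjusted p under 0.05. Leaving out osmotic cells replicate 3 gave 2 members by edgeR. MiR-17-3p had the lowest p: at 44.9, 41.8 and 32.3 CPM in osmotic cells and 0 in the 3 ammonia cell libraries, it was at least 236-fold higher in osmotic cells, again having entered the fit only through that group. In osmotic against ammonia MPs 0 of 8 passed by edgeR and 1 by DESeq2 (1 under 0.05 before adjustment). The lowest adjusted p by edgeR was 0.0516 for cgr-miR-17-5p. Of all 332 entries, 64 (19.3%) passed by edgeR and 63 by DESeq2, and 95 were under 0.05 before adjustment. In exosomes 0 of 8 passed by edgeR and 0 by DESeq2 (1 under 0.05 before adjustment). Of all 332 entries, 0 passed by edgeR and 34 by DESeq2, and 61 were under 0.05 before adjustment. In the changes of MPs and of exosomes against cells, 0.301% and 0% of 332 entries passed by edgeR. DESeq2 called 1 and 0 members, and 53 and 6 of all entries. Before adjustment 1 and 0 members were under 0.05, and 89 and 26 of all entries.

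In cells of the stressed cultures the families stood in another proportion than in standard cells, a comparison in which stress and kit cannot be told apart. Cgr-miR-20a fell from 13893, 12984 and 15949 CPM to 3574, 4706 and 2042 CPM in osmotic cells (log2 fold change −2.14 ± 0.23, adjusted p = 2.92e-05) and to 1822, 2319 and 2467 CPM in ammonia cells (−2.31 ± 0.23, adjusted p = 1.68e-05). For its seed partner cgr-miR-17-5p the values were −0.34 ± 0.27 (adjusted p = 0.366) and −0.50 ± 0.27 (adjusted p = 0.160). The ammonia value was called with DESeq2's size factors in edgeR (−0.87, adjusted p = 0.0241), with library size alone (−0.91, 0.0413) and by DESeq2 (−0.87, 0.0118), and the osmotic value by DESeq2 (−0.71, 0.0489). The log2 ratio of miR-20a to miR-17-5p was 2.58 ± 0.41 (SD, n = 3) in standard, 0.78 ± 0.06 in osmotic and 0.79 ± 0.36 in ammonia cells (exact permutation p = 0.0357, adjusted p = 0.0643). Cgr-miR-18a-5p fell from 1128, 1035 and 1362 CPM to 138.8, 173.4 and 97.5 CPM in osmotic cells (−3.17 ± 1.14, adjusted p = 0.0488) and to 151, 1.02 and 25.4 CPM in ammonia cells (−3.75 ± 1.17, adjusted p = 0.0223). The osmotic call was lost without any single one of the 6 libraries (adjusted p 0.0735 to 0.134), and the ammonia call without standard cells replicate 3 (0.0660) or ammonia cells replicate 3 (0.0689).

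Of the miR-19 pair, cgr-miR-19b-3p passed in both cultures and cgr-miR-19a in neither. Cgr-miR-19b-3p rose from 431, 299 and 79.7 CPM in standard cells to 1258, 1830.3 and 463 CPM in osmotic cells, which did not overlap (log2 fold change +2.03 ± 0.54, adjusted p = 0.0109). In ammonia cells it stood at 418, 664 and 568 CPM, overlapping with standard cells, and passed narrowly (+1.42 ± 0.53, adjusted p = 0.0480). That call was lost without standard cells replicate 2, standard cells replicate 3 or any of the ammonia libraries (adjusted p 0.0784 to 0.125) and with other scalings (0.0531 to 0.190). The log2 fold change of cgr-miR-19a was +3.11 ± 1.56 (adjusted p = 0.149) and +0.71 ± 1.49 (adjusted p = 0.742), the latter turning to −0.52 with a replicate block. In proportion to cgr-miR-92a-3p, the log2 ratio of miR-19b-3p averaged −8.79 ± 0.81 (SD, n = 3) in standard, −6.15 ± 0.85 in osmotic and −6.62 ± 0.08 in ammonia cells (exact permutation p = 0.0143, adjusted p = 0.0536). As a share of cluster counts the miR-19 pair was 0.208% ± 0.0877 in standard cells, 1.59% ± 0.849 in osmotic cells and 0.962% ± 0.0575 in ammonia cells.

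The entries of miR-92a-3p separated by species name. Mmu-miR-92a-3p fell from 12168, 11014 and 8589 CPM in standard cells to 3018, 2416 and 2370.1 CPM in osmotic cells (log2 fold change −2.04 ± 0.25, adjusted p = 6.58e-05) and 1168, 1838 and 2081 CPM in ammonia cells (−2.26 ± 0.25, adjusted p = 3.20e-05). For cgr-miR-92a-3p the values were −0.50 ± 0.24 (adjusted p = 0.129) and −0.53 ± 0.24 (adjusted p = 0.0907). Both cgr-miR-92a-3p values were called with DESeq2's size factors (−0.87 and −0.89, adjusted p = 0.00666 and 0.00564) and without standard cells replicate 3 (adjusted p = 0.0253 and 0.0219). The log2 ratio of the mouse to the hamster entry was −3.23 ± 0.21 (SD, n = 3) in standard, −4.81 ± 0.14 in osmotic and −5.01 ± 0.26 in ammonia cells (exact permutation p = 0.0107, adjusted p = 0.0536). In osmotic cells cgr-miR-17-3p was at least 6.13-fold higher than in standard cells. It entered the fit of cells only through the osmotic libraries, so this is a description and no p is given.

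In all, 5 of 8 members passed in osmotic against standard cells (2 higher, 1 of them cgr-miR-17-3p, and 3 lower, with 37.3% of 429 entries passing, 20% higher and 17.2% lower) and 4 in ammonia against standard cells (1 higher, 3 lower, with 43.1% passing, 21.2% higher and 21.9% lower). The groups did not overlap for 6 and 5 members and for 56.6% and 55.2% of entries. The median was −0.42 and −0.51 over the members and +0.56 and +0.18 over all entries. In a fit of all 27 libraries, which pools the wide spread of stressed vesicles with that of cells, 1 and 0 members passed, and cgr-miR-17-5p and cgr-miR-92a-3p turned positive in both cultures.

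The paralog clusters of miR-106b and miR-106a, which carry the same seeds, had 27 entries of which 15 held a count. Of 7 paralog entries tested in standard culture, 3 rose and 0 fell in MPs against cells, where 15.7% of all entries rose. In exosomes against cells 3 rose and 0 fell, where 26.8% of all entries rose. The most abundant was cgr-miR-25-3p, which shares the miR-92 seed, at 36508 ± 3513 CPM (SD, n = 3) in standard cells, 52776 ± 3296 CPM in MPs and 72079 ± 2569 CPM in exosomes. It rose in exosomes against cells by +0.78 ± 0.17 on the log2 scale (adjusted p = 0.00151) and in MPs by +0.48 ± 0.17 (adjusted p = 0.0431). Of 9 paralog entries tested in the stressed fit, 6 fell in osmotic MPs and 3 in ammonia MPs against cells, and none rose. Of all entries 48.5% and 31% fell in these comparisons.

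Over the 27 libraries, with log2(CPM + 1) centred within each kit, cgr-miR-92a-3p had Pearson r of 0.05 to cgr-miR-17-5p, 0.16 to cgr-miR-20a, 0.18 to cgr-miR-18a-5p, 0.20 to cgr-miR-19b-3p, 0.34 to cgr-miR-19a, 0.37 to cgr-miR-17-3p and 0.42 to mmu-miR-92a-3p. Cgr-miR-17-5p had r of 0.84 to cgr-miR-19b-3p, 0.72 to cgr-miR-20a, 0.68 to cgr-miR-18a-5p, 0.67 to cgr-miR-19a, 0.50 to cgr-miR-17-3p and 0.40 to mmu-miR-92a-3p. Among 200 other entries with a mean of at least 50 CPM, those most like cgr-miR-92a-3p were mmu-miR-30d-5p (0.56), cgr-miR-29a-3p (0.43) and rno-miR-125b-2-3p (0.43), and those most like cgr-miR-17-5p were cgr-miR-374-5p (0.92), cgr-miR-29b-5p (0.90) and rno-miR-322-3p (0.90). The libraries share fractions, cultures and depth, so these values are a description, and they are given with no test.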

How the data were processed

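Small RNA of 27 libraries in 9 groups was analysed from the raw counts that the authors deposited, 1 whole number for each miRNA entry and library. Per the submitters' processing notes, FastQC 0.10.1 and cutadapt 2.8 were used, with builds GRCm38, Rnor_6.0 and GRCh38. No source used here gives the counting tool. The deposited normalised signal equals the count over an effective library size (relative deviation up to 7.43e-10) and served only for those sizes as an alternative scaling. A further deposited table was not used, with its 54 columns of values per sample.

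Counts were tested with edgeR 4.0.16 in R 4.3.3 (quasi-likelihood test with TMM scaling, low entries removed by filterByExpr, Benjamini-Hochberg adjustment over all entries, passing at an adjusted p under 0.05), with the SE taken from the F statistic. Fits used the 9 standard libraries (351 entries), the 18 stressed (332), the 6 stressed cell (354), the 9 cell (429) or all 27 libraries (420). DESeq2 1.42.0 was an alternative. There were 14 comparisons and 6 interactions. Ratios within a library took an exact permutation test over group labels, on the between-group sum of squares of 3 groups. It tests any difference among the 3 and names no pair or direction. A group at 0 was set at 3 counts over its summed total, and its bound was taken against the mean CPM of the other group. Floors and intervals hold for counting error alone, because no molecular identifiers separate molecules from PCR copies.

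Members that passed are counted in every comparison. Folds or bounds are given for most of those that passed and for some others beside a member of the same seed. Members, lists and tests were chosen with earlier results of these data known. Scripts were tested on simulated counts.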

Additional observations from a re-analysis of the deposited data

Results flagged for a closer look

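Each value here belongs to a vesicle minus cell difference that was lower in a stressed culture than in the standard one. The differences were compared by an interaction term, fitted over 27 libraries with edgeR's quasi-likelihood test. Kit and culture cannot be told apart in any of them, and depth differs between the groups compared.

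For MPs in osmotic culture the term passed for cgr-miR-19b-3p (adjusted p = 0.00215), cgr-miR-17-5p (0.00290), cgr-miR-19a (0.00294) and cgr-miR-18a-5p (0.0211). The value for cgr-miR-17-3p (adjusted p = 0.0259) is listed but not read as a result. The filter on low counts admitted cgr-miR-17-3p only through osmotic cells, the group where it is high. For MPs in ammonia culture it passed for cgr-miR-19b-3p (adjusted p = 0.00226), cgr-miR-19a (0.00509) and cgr-miR-18a-5p (0.0141).

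For exosomes in osmotic culture the term passed for cgr-miR-19a (adjusted p = 0.0271) and cgr-miR-19b-3p (0.0393). For exosomes in ammonia culture it passed for cgr-miR-19b-3p (adjusted p = 0.0114), cgr-miR-17-5p (0.0124), mmu-miR-92a-3p (0.0289), cgr-miR-19a (0.0308) and cgr-miR-20a (0.0413). Cgr-miR-19a rests on 9 counts in standard cells and on 0 in the stressed vesicles, and cgr-miR-17-3p had at most 4.77 CPM outside osmotic cells.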

How the results depend on the processing

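Counts below are members passing an adjusted p under 0.05. Apart from DESeq2, the share of all entries passing under each changed setting is not set beside them. A change in these counts is therefore not read as particular to the members, and the same holds for such counts given above. In standard culture, summing entries over species left 1 in MPs against cells, and DESeq2 called 4 in exosomes against MPs. In stressed culture, testing with no filter on low counts left 0 in osmotic and 0 in ammonia MPs against cells, and a fit of the ammonia cells and MPs alone left 1. In ammonia exosomes DESeq2's size factors gave 1 against cells and 1 against MPs, and DESeq2 gave 3 and 2. DESeq2 also called 2 in osmotic exosomes against MPs, 1 in osmotic against ammonia MPs, 1 in osmotic against ammonia cells and 1 in the change of MPs between those cultures. A fit of all 27 libraries left 1 in osmotic and 0 in ammonia against standard cells. The change of exosomes from standard to osmotic culture had 0 with DESeq2's size factors, 1 with library size alone, 0 with the authors' library sizes, 0 with no filter and 1 by DESeq2, and that to ammonia culture had 0, 0 and 0 with DESeq2's size factors, the authors' library sizes and no filter and 2 by DESeq2. Over all entries DESeq2 called 129 of 351 in standard exosomes against MPs. In the changes of exosomes from standard culture it called 44 (osmotic) and 81 (ammonia) of 420. The causes were not tested.

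The labels number the replicates, but same-numbered libraries did not deviate together (r from −0.303 to 0.168 across the 14 comparisons, none with all 3 values over 0.1). A replicate block left 0 members in the change of exosomes from standard to osmotic culture, turned cgr-miR-19a in ammonia against standard cells to −0.52, and moved no other count of members by over 1.5 times.

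Leaving out each library in turn gave 1 to 3 members in standard exosomes against MPs, 0 to 5 in osmotic MPs against cells, 0 to 1 in osmotic against ammonia MPs, 0 to 2 in osmotic against ammonia cells, 3 to 4 in osmotic and 2 to 4 in ammonia against standard cells, and, for the change of exosomes, 0 to 3 in osmotic and 3 to 6 in ammonia culture. An arm left with 2 libraries took its spread from the whole fit.

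The same gave adjusted p ranges for the log2 ratios across standard fractions of 0.0468 to 0.0707 (miR-20a to miR-92a-3p), 0.0321 to 0.0707 (miR-18a-5p), 0.0357 to 0.171 (miR-19a), 0.0357 to 0.914 (miR-19b-3p), 0.0357 to 0.0714 (miR-20a to miR-17-5p), 0.0357 to 0.487 (miR-19a to miR-19b-3p) and 0.0357 to 0.111 (mouse to hamster miR-92a-3p). Across cells the ranges were 0.0321 to 0.0714 (miR-20a to miR-92a-3p), 0.0321 to 0.188 (miR-18a-5p), 0.0321 to 0.0643 (miR-19b-3p), 0.0321 to 0.0714 (miR-20a to miR-17-5p), 0.0321 to 0.0643 (miR-17-3p to miR-17-5p) and 0.0357 to 0.0643 (mouse to hamster miR-92a-3p). The range for miR-17-3p is not read as a result, because miR-17-3p was at 0 in 6 of these cell libraries, all standard and ammonia ones. There the ratio holds only the added 0.5 and the miR-17-5p count. Its mean was −9.5 in standard and −13.9 in ammonia cells, with miR-17-3p at 0 in both. The p-value of this ratio still entered the adjustment over the 18 ratio tests.

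Of 647 checks on 44 log2 fold changes 543 kept direction and side of the threshold, 70 lost the call, 18 gained one and 16 turned sign. Left-out libraries turned cgr-miR-19b-3p in standard MPs against cells to 0.24, 0.13 and 0.06 (range −0.44 to 0.24), cgr-miR-17-5p in standard exosomes to −0.02 against cells (−0.02 to 0.35) and −0.01 against MPs (−0.01 to 0.24), and cgr-miR-92a-3p in ammonia MPs to −0.03 and −0.02 (−0.03 to 0.49). Library size alone turned cgr-miR-92a-3p to −0.33 in osmotic and −0.14 in ammonia MPs against cells. With no filter cgr-miR-20a in osmotic MPs was at 0.13. A fit of all 27 libraries turned cgr-miR-17-5p to 0.51 and 0.23 and cgr-miR-92a-3p to 0.32 and 0.19 in osmotic and ammonia against standard cells.

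Depth limits the scarce products most: a count of 0 allows 12.7 CPM in osmotic exosomes, 6.47 in standard cells and 6.32 in ammonia exosomes.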

Other observations

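The opposite arm of the miR-92a hairpin, cgr-miR-92a-5p, is no member of the list and was singled out after its values were seen. It stood at 174.0, 105.1 and 106.3 CPM in standard cells, at 48.9, 39.3 and 32.7 CPM in standard MPs and at 25.8, 12.8 and 18.2 CPM in standard exosomes. In osmotic cells it stood at 4903, 4907 and 3312 CPM and in ammonia cells at 2708, 1910 and 3083 CPM, above every standard library. Per count of cgr-miR-92a-3p it was 0.104% to 0.151% in standard cells, 5.40% to 6.55% in osmotic cells and 3.07% to 6.22% in ammonia cells.

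In stressed MPs it dropped again. It had 4, 6 and 1 counts in osmotic MPs and 6, 0 and 2013 counts in ammonia MPs, the last from 1 library. Cgr-miR-92a-5p is 1 of 24 other entries named for these miRNAs, of which 8 held a count. For cgr-, mmu- and rno-miR-18a-3p the mean was 41.6, 48.0 and 12.3 CPM in standard cells. It was 112.6, 48.2 and 42.1 CPM in osmotic and 51.0, 45.0 and 59.8 CPM in ammonia cells. In ammonia MPs the cgr entry had 1154, 1 and 0 counts and the mmu entry 4330, 1 and 0. These are values from 2 kits, and no test was made of them.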
